A study of Homo sapiens with 5 samples.

Results

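The genes described here are 8 regulators of the p53 protein: MDM2, MDM4, USP7, USP28, TP53BP1, ATM, CHEK2 and PPM1D. They were chosen by name, as rows whose gene symbol is on that list, out of 64252 genes in the count table. The study knocked down FAM53C in RPE-1 cells, an immortalised human cell line derived from retinal pigment epithelium, and measured RNA by sequencing. The 3 siCtrl libraries came from RPE-1 cells labelled WT that received a negative control siRNA, which the labels call on-target control. The 2 siFAM53C libraries came from cells labelled FAM53C KD that received a pool of siRNAs against FAM53C. Both groups were transfected with 5 µM siRNA and collected 48 hr later, so every library comes from transfected cells of 1 line. The comparison asks whether the RNAs of genes that set the level and activity of p53 differed after knock-down of FAM53C. The labels do not say whether replicates were separate cultures, so the p-values measure the spread between these libraries, which may be technical.

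p53 is a transcription factor that halts the cell cycle or triggers cell death after stress, and its level is set mainly by how fast it is degraded. MDM2 is a ubiquitin ligase that marks p53 for degradation and is itself switched on by p53. MDM4 is a relative of MDM2 that binds p53 and blocks its activity. USP7 is a deubiquitinase that removes ubiquitin from both MDM2 and p53. USP28 is a deubiquitinase that acts with 53BP1, the product of TP53BP1, to stabilise p53 after a prolonged mitosis. ATM is the kinase that answers DNA double-strand breaks, CHEK2 encodes its downstream kinase Chk2, and PPM1D encodes Wip1, a phosphatase induced by p53 that reverses their signals. Most of this control acts on the proteins, and the libraries measured RNA only.

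The libraries held between 19260124 and 25615415 counts, and 15341 genes passed the filter on low counts, all 8 regulators among them. FAM53C had 60.9, 59.7 and 57.6 CPM, that is, counts scaled to a common library size, in siCtrl replicates 1 to 3 and 14.2 and 22.3 CPM in siFAM53C replicates 1 and 2, so the targeted RNA went with the labels (log2 fold change -1.71, edgeR adjusted p = 0.003625). Libraries also split within the groups. The first principal component (39.8% of the variance) had scores of -31.5 and -47.4 for siCtrl replicates 1 and 2, 33.7 for siCtrl replicate 3, 44.9 for siFAM53C replicate 2 and 0.264, between the others, for siFAM53C replicate 1. The labels name no batch for this split. The library names do give siCtrl replicate 3 and siFAM53C replicate 2 the same number, 3, and siFAM53C replicate 1 the number 1. The difference of each of the 8 regulators is therefore also given within the sides, as siFAM53C replicate 1 against siCtrl replicates 1 and 2 (side A) and as siFAM53C replicate 2 against siCtrl replicate 3 (side B). The labelled cell type was only partly visible in its markers. The pigment epithelium genes MITF and OTX2 were present at 34.0 to 48.8 and 13.5 to 17.1 CPM and the epithelial keratin KRT8 at 236 to 328 CPM. BEST1, RLBP1, TYR and PMEL, also listed as pigment epithelium markers, were far lower than MITF and OTX2. RPE65 had 0 counts in every library, which allows up to 0.156 CPM in the smallest one, and EPCAM and CDH1, which define most epithelia, were at or near 0.

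Knock-down of FAM53C was accompanied by a lower level of 1 of the 8 RNAs, that of USP7, and no regulator passed the test in the higher direction. The background was 3.47% of all genes tested called lower and 0.489% called higher (quasi-likelihood test of edgeR, p-values adjusted by Benjamini-Hochberg over all genes tested, threshold 0.05). At an unadjusted p under 0.05 there were 2 regulators lower (USP7 and USP28) and 1 higher (TP53BP1), against 10.5% and 6.61% of all genes. The siFAM53C values of 2 regulators, USP7 and USP28, lay wholly below the siCtrl values, as did those of 18.8% of all genes, and those of TP53BP1 and PPM1D lay wholly above, as did those of 16.7%. The other 4 overlapped. The median log2 fold change over the 8 was 0.010, beside 0.016 over all genes tested, with 4 values below 0 and 4 above.

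**Figure D1:**
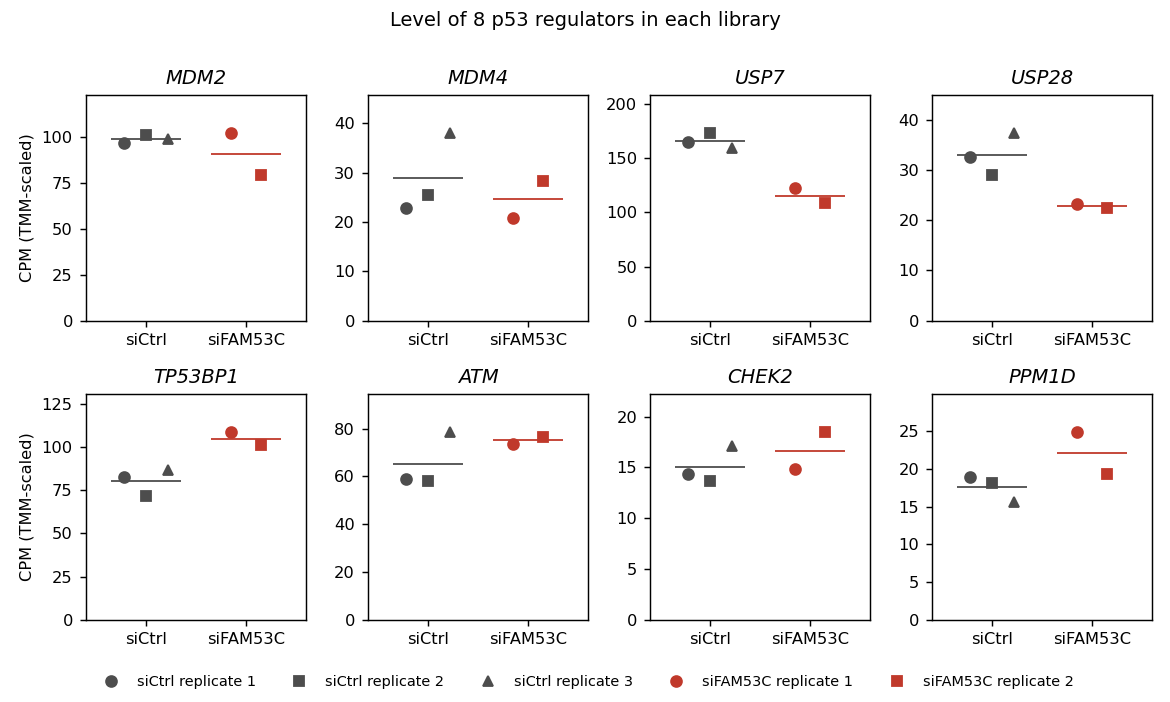
CPM of each of the 8 regulators in the 3 siCtrl and 2 siFAM53C libraries, 1 panel a gene, with circles, squares and triangles for replicates 1, 2 and 3 and a line at each group's mean, each vertical axis starting at 0. The 2 siFAM53C points lie below all siCtrl points for USP7 and USP28 and above them for TP53BP1 and PPM1D, while the groups overlap or straddle each other for the other 4.

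USP7 (ENSG00000187555, chromosome 16, 8892097 to 8975328, minus strand, GRCh38) had 165, 174 and 159 CPM in siCtrl replicates 1 to 3 and 123 and 108 CPM in siFAM53C replicates 1 and 2. Both siFAM53C libraries were lower than every control. The mean fell from 166 ± 7.15 CPM (SD, n = 3) to 116 ± 10.4 CPM (SD, n = 2), a log2 fold change of -0.52 (SE 0.11, 95% interval -0.77 to -0.27, edgeR adjusted p = 0.042). This is a fold of 0.696, so the fitted level fell by 30.4%. The difference was present on both sides of the library split, at -0.46 on side A and -0.56 on side B. The call rested on each library but siCtrl replicate 3: the adjusted p was 0.150 without siCtrl replicate 1, 0.190 without siCtrl replicate 2, 0.160 without siFAM53C replicate 1 and 0.340 without siFAM53C replicate 2, with log2 fold changes between -0.62 and -0.44 over all the alternatives tried (edgeR). With a term for the side of the library split the log2 fold change was -0.50 (edgeR adjusted p = 0.000371), and with siFAM53C replicate 1 counted on side B it was -0.46 (edgeR adjusted p = 0.066). USP7 also missed the threshold without robust estimation, with upper-quartile scaling and with library totals (edgeR adjusted p = 0.053, 0.059 and 0.072). In bulk RNA, fewer cells with the transcript and less of it per cell cannot be told apart.

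The 3' untranslated regions (UTRs) of the 8 regulators were read for GACAAGA, a heptamer picked earlier from these same libraries for its presence in the 3' UTRs of genes that were lower after the knock-down, so its match to these genes supports nothing. The heptamer stood on the transcribed strand of the canonical GENCODE transcript of 3 regulators, and those sites are shown because 1 of them lies in USP7. They are written 5' to 3' on the GRCh38 strand of the gene, the heptamer in capitals with the bases on each side of it. The USP7 site is at chr16:8893193-8893213 on the minus strand, the TP53BP1 site at chr15:43407154-43407174 on the minus strand and the ATM site at chr11:108366001-108366021 on the plus strand.
USP7: aacagacGACAAGAaagcctt
TP53BP1: aacaaatGACAAGAcatagta
ATM: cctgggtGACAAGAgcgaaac
The 3 carriers did not share a direction, since USP7 fell while TP53BP1 and ATM had log2 fold changes of 0.38 and 0.20 that did not pass the test. USP28 held no copy and had a log2 fold change of -0.53. Of all tested genes with a 3' UTR, 10.7% held the heptamer, and 16.4% of those with a 3' UTR of at least 1000 bases did. The search took the transcribed strand only, and a match is a description of the letters, not of a bound site.

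USP28 (ENSG00000048028, chromosome 11, 113797874 to 113875572, minus strand) had 32.6, 28.9 and 37.5 CPM in siCtrl replicates 1 to 3 and 23.2 and 22.4 CPM in siFAM53C replicates 1 and 2. Both siFAM53C libraries lay below the lowest control and within 0.053 of each other on the log2 scale. The means were 33.0 ± 4.27 CPM (SD, n = 3) and 22.8 ± 0.594 CPM (SD, n = 2), a log2 fold change of -0.53 (SE 0.15, 95% interval -0.88 to -0.19). It did not pass the test over all genes (edgeR adjusted p = 0.111). The difference was as large as that of USP7, but the controls spread over 0.37 on the log2 scale for USP28 and 0.12 for USP7. Within the sides it was -0.40 and -0.74. DESeq2 called USP28 lower (adjusted p = 0.046), and so did the edgeR fit with a side term (log2 fold change -0.55, adjusted p = 0.007141) and the one with siFAM53C replicate 1 on side B (-0.72, adjusted p = 0.033). Its paralog USP25, also a deubiquitinase, had 53.9, 60.6 and 61.7 CPM in the controls and 46.4 and 46.9 CPM after the knock-down, again without overlap, at a log2 fold change of -0.33 (edgeR adjusted p = 0.187).

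TP53BP1 (ENSG00000067369, chromosome 15, 43403061 to 43510728, minus strand) had 82.9, 71.9 and 86.9 CPM in siCtrl replicates 1 to 3 and 109 and 101 CPM in siFAM53C replicates 1 and 2. Both siFAM53C libraries were above every control. The means were 80.6 ± 7.74 CPM (SD, n = 3) and 105 ± 5.51 CPM (SD, n = 2), a log2 fold change of 0.38 (SE 0.12, 95% interval 0.11 to 0.65). It did not pass the test (edgeR adjusted p = 0.143). The within-side differences were 0.50 on side A and 0.22 on side B. TP53BP1 was called higher without siCtrl replicate 3 (0.45, edgeR adjusted p = 0.038) and with the side term (0.38, edgeR adjusted p = 0.011), but not with siFAM53C replicate 1 on side B (0.27, edgeR adjusted p = 0.305). Of the exon bases of TP53BP1, 28.8% overlap exons of TUBGCP4 on the opposite strand, at the 3' ends of both genes. The alignment is described as reverse-stranded, but the strand setting of the counting is not given in the sources used here, and without strand, reads there could not be assigned to one gene or the other. TUBGCP4, a gamma-tubulin complex subunit, had 27.1, 29.4 and 29.7 CPM in the controls and 26.0 and 26.2 CPM after the knock-down, a difference in the other direction (-0.14, edgeR adjusted p = 0.662).

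USP28 and 53BP1 work as partners, and their RNAs lay on opposite sides of the controls. The ratio of USP28 to TP53BP1, per base of exon, was 0.882, 0.901 and 0.965 in the controls and 0.477 and 0.496 after the knock-down. This was the tightest of the 4 ratios formed between regulators, with controls within 0.916 ± 0.0436 (SD, n = 3) and knock-downs within 0.486 ± 0.0129 (SD, n = 2). The log2 difference was -0.91, with -0.90 on side A and -0.96 on side B, and it ranged from -0.94 to -0.87 when single libraries were left out. A ratio within a library does not depend on how libraries are scaled. A two-sided exact permutation test gave p = 0.2, which is the smallest that 3 against 2 libraries allow, and 0.8 after Benjamini-Hochberg adjustment over the 4 ratios, so this test cannot reach 0.05 with these libraries.

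**Figure D2:**
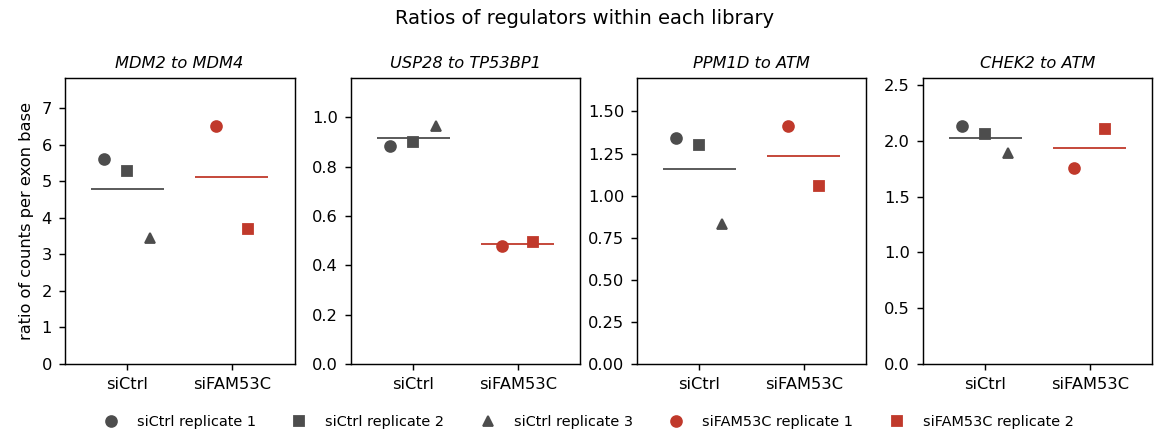
Ratios of counts per exon base between pairs of regulators within each library, on axes that start at 0, with circles, squares and triangles for replicates 1, 2 and 3 and lines at group means. USP28 to TP53BP1 is 0.882 to 0.965 in the controls and 0.477 to 0.496 after the knock-down, while the other 3 ratios overlap between the groups.

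MDM2 (ENSG00000135679, chromosome 12, 68808177 to 68845544, plus strand) had 96.9, 101 and 98.96 CPM in siCtrl replicates 1 to 3 and 102 and 79.3 CPM in siFAM53C replicates 1 and 2. The controls were within 0.063 of each other on the log2 scale, the narrowest range of the 8, and the knock-down libraries lay on either side of them. The means were 99.04 ± 2.17 CPM (SD, n = 3) and 90.8 ± 16.3 CPM (SD, n = 2), a log2 fold change of -0.13 (SE 0.13, 95% interval -0.42 to 0.17, edgeR adjusted p = 0.702). The sign differed between the sides, at 0.047 on side A and -0.32 on side B. The interval leaves room for a rise of up to 0.17 and a drop of down to -0.42. MDM2 shares 11.1% of its exon bases with genes on the opposite strand. It also shares 439 exon bases on the same strand with other annotation, where strand cannot assign the reads.

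MDM2 is the regulator in this group whose own promoter p53 is best known to bind, at the second, internal start of the gene. In the RefSeq windows from 250 bases before to 50 after each gene start (GRCh38.p14), both strands were searched for the p53 response element, a pair of decamers without spacer, requiring the C and G of each core CNNG. The closest match in MDM2 differed from it at 2 of 20 bases and lies at chr12:68808923-68808942 on the plus strand, with the 2 cores in capitals.
MDM2: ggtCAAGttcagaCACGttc
As few mismatches were found in 0.359% of 27305 genes, MDM2 having 4 windows. The best matches of MDM4, USP7 and ATM had 5 mismatches, which 13.8% of genes reached, and those of the other regulators had 6 to 9. CDKN1A, which encodes the cell-cycle inhibitor p21 and is also a p53 target, had 354, 331 and 182 CPM in the controls and 452 and 240 CPM after the knock-down (log2 fold change 0.26, edgeR adjusted p = 0.815, and 0.40 on each side). With the side term CDKN1A was called higher (0.40, edgeR adjusted p = 0.001623), as it was with a block by library names (0.38, edgeR adjusted p = 0.010491), but not with siFAM53C replicate 1 on side B (0.93, edgeR adjusted p = 0.414). In siCtrl replicate 3 CDKN1A was lower by -0.91 on the log2 scale than in the other controls, while MDM2 differed by -0.0013.

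MDM4 (ENSG00000198625, chromosome 1, 204516379 to 204558120, plus strand) had 22.9, 25.4 and 38.1 CPM in siCtrl replicates 1 to 3 and 20.8 and 28.4 CPM in siFAM53C replicates 1 and 2. It followed the library split more than any of the other 7: siCtrl replicate 3 was 0.66 above the other controls and siFAM53C replicate 2 was 0.45 above replicate 1, both on the log2 scale. The means were 28.8 ± 8.13 CPM (SD, n = 3) and 24.6 ± 5.35 CPM (SD, n = 2), and the log2 fold change was -0.23 (SE 0.25, 95% interval -0.80 to 0.35, edgeR adjusted p = 0.723). Within the sides it was -0.21 and -0.42, and with the side term -0.31 (edgeR adjusted p = 0.112). The ratio of MDM2 to MDM4 was 5.60, 5.28 and 3.44 in the controls and 6.51 and 3.70 after the knock-down, so it separated the sides and not the groups (log2 difference 0.072, exact permutation p = 0.8, and 0.8 after adjustment).

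ATM (ENSG00000149311, chromosome 11, 108223044 to 108369102, plus strand) had 58.9, 58.1 and 78.7 CPM in siCtrl replicates 1 to 3 and 73.5 and 76.6 CPM in siFAM53C replicates 1 and 2. The knock-down libraries were above siCtrl replicates 1 and 2 and below siCtrl replicate 3. The means were 65.2 ± 11.7 CPM (SD, n = 3) and 75.1 ± 2.19 CPM (SD, n = 2), a log2 fold change of 0.20 (SE 0.15, 95% interval -0.15 to 0.55, edgeR adjusted p = 0.572). It was 0.33 on side A and -0.039 on side B. NPAT, which regulates histone gene transcription and starts 406 bases from ATM on the opposite strand, had 27.3, 32.4 and 35.0 CPM in the controls and 26.9 and 23.1 CPM after the knock-down, a log2 fold change of -0.34 (edgeR adjusted p = 0.326).

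CHEK2 (ENSG00000183765, chromosome 22, 28687743 to 28742422, minus strand) had 14.4, 13.7 and 17.1 CPM in siCtrl replicates 1 to 3 and 14.8 and 18.5 CPM in siFAM53C replicates 1 and 2. The groups overlapped, and replicate 3 of siCtrl and replicate 2 of siFAM53C were the highest of each. The means were 15.1 ± 1.78 CPM (SD, n = 3) and 16.7 ± 2.61 CPM (SD, n = 2), a log2 fold change of 0.15 (SE 0.18, 95% interval -0.28 to 0.57, edgeR adjusted p = 0.764). Within the sides it was 0.077 and 0.11. It had the fewest counts of the 8, 262 to 436 a library, and counting error alone was 6.18% in the library with the fewest. Its 5' end overlaps HSCB, an iron-sulphur cluster chaperone gene, on the opposite strand over 6.52% of its exon bases, and HSCB had 88 to 210 counts. The ratio of CHEK2 to ATM was 2.13, 2.06 and 1.89 in the controls and 1.76 and 2.11 after the knock-down (log2 difference -0.073, exact permutation p = 0.6, and 0.8 after adjustment).

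PPM1D (ENSG00000170836, chromosome 17, 60600193 to 60666280, plus strand) had 18.9, 18.2 and 15.7 CPM in siCtrl replicates 1 to 3 and 24.9 and 19.4 CPM in siFAM53C replicates 1 and 2. Both knock-down libraries lay above the controls, siFAM53C replicate 2 only just. The means were 17.6 ± 1.71 CPM (SD, n = 3) and 22.2 ± 3.92 CPM (SD, n = 2), a log2 fold change of 0.33 (SE 0.17, 95% interval -0.065 to 0.73). It did not pass the test (edgeR adjusted p = 0.382). The difference had the same sign on both sides, 0.43 and 0.31, and the side term gave 0.38 (edgeR adjusted p = 0.066). PPM1D and MDM2 were both lower in siFAM53C replicate 2 than in replicate 1, by -0.36 and -0.37 on the log2 scale, and so was CDKN1A by -0.91. The direction was not particular to p53 targets. USP7, USP28 and TP53BP1 were lower as well, by -0.18, -0.053 and -0.11, while MDM4, ATM and CHEK2 were higher, by 0.45, 0.059 and 0.32. PIDD1, another p53 target, was higher by 0.28. The ratio of PPM1D to ATM was 1.34, 1.30 and 0.829 in the controls and 1.41 and 1.05 after the knock-down (log2 difference 0.11, exact permutation p = 0.8, and 0.8 after adjustment).

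**Figure D3:**
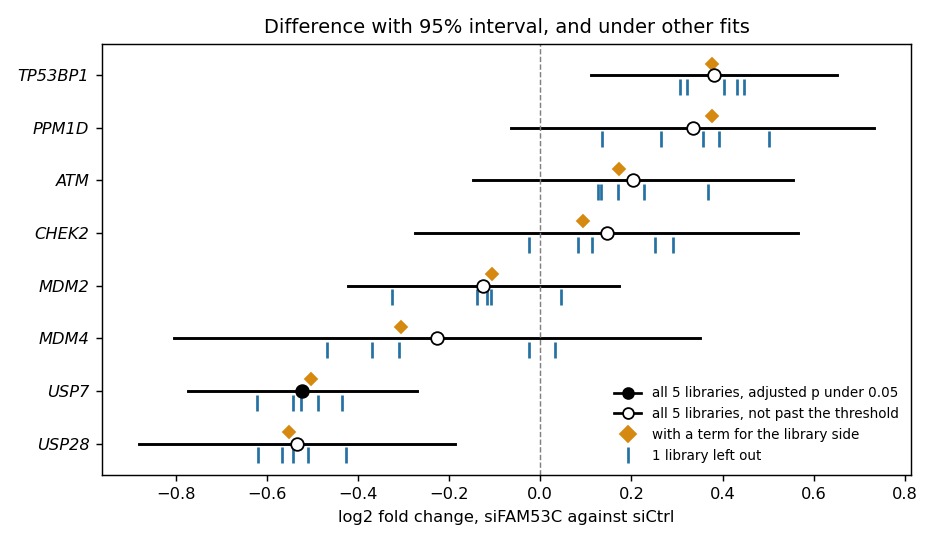
Log2 fold changes of the 8 regulators, siFAM53C against siCtrl, with 95% intervals from the edgeR fit, diamonds for the fit with a side term and ticks for the fits with 1 library left out. USP7 alone is filled, its adjusted p being under 0.05. The intervals of USP7, USP28 and TP53BP1 lie away from 0 and the other 5 include it.

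Over the 8 regulators, 5 of the intervals included 0, and the within-side differences had the same sign on both sides for 6, the exceptions being MDM2 and ATM. For MDM4, ATM and CHEK2 the range among the controls was wider than the difference between the groups. DESeq2 called 2 regulators lower, USP7 and USP28, beside 6.98% of the genes to which it gave an adjusted p, and 0 higher, beside 2.02%. limma-voom called 1 lower, USP7, beside 3.35% of all genes, and 0 higher, beside 0.482%. With the side term, edgeR called USP7 and USP28 lower, beside 10.7% of all genes, and TP53BP1 higher, beside 6.76%. The side was read from these counts, so its fits are a description of the same libraries from another angle.

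From the highest to the lowest, the RNAs of the 8 regulators differed in level more than any of them differed between the groups, though not every pair did. On a scale of CPM per kilobase of exon, which allows genes of different length to be compared, the siCtrl levels were 18.99 ± 0.819 for USP7, 11.9 ± 0.262 for MDM2, 6.21 ± 0.596 for TP53BP1, 5.70 ± 0.738 for USP28, 3.35 ± 0.397 for CHEK2, 2.62 ± 0.738 for MDM4, 1.87 ± 0.181 for PPM1D and 1.66 ± 0.298 for ATM (mean ± SD, n = 3). USP7 stood at the 84.4th percentile of all genes tested and ATM at the 33.8th. The ranges over the 5 libraries did not overlap between USP7 and MDM2, though the lowest USP7 value (12.38) and the highest MDM2 value (12.32) nearly met, or between MDM2 and TP53BP1, and every later neighbour in the order overlapped the one before it. After the knock-down the levels were 13.2 ± 1.19 for USP7, 8.09 ± 0.425 for TP53BP1 and 3.93 ± 0.103 for USP28 (mean ± SD, n = 2). The place of ATM depends on the length used, since its annotated exons span 39184 bases and its longest transcript 13130. Per kilobase of longest transcript the siCtrl mean was 4.97 for ATM and 2.87 for MDM4, and the siCtrl order ended with CHEK2, ATM, PPM1D and MDM4, while its first 4 places held. In siFAM53C on that scale USP28 came after CHEK2 and ATM.

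**Figure D4:**
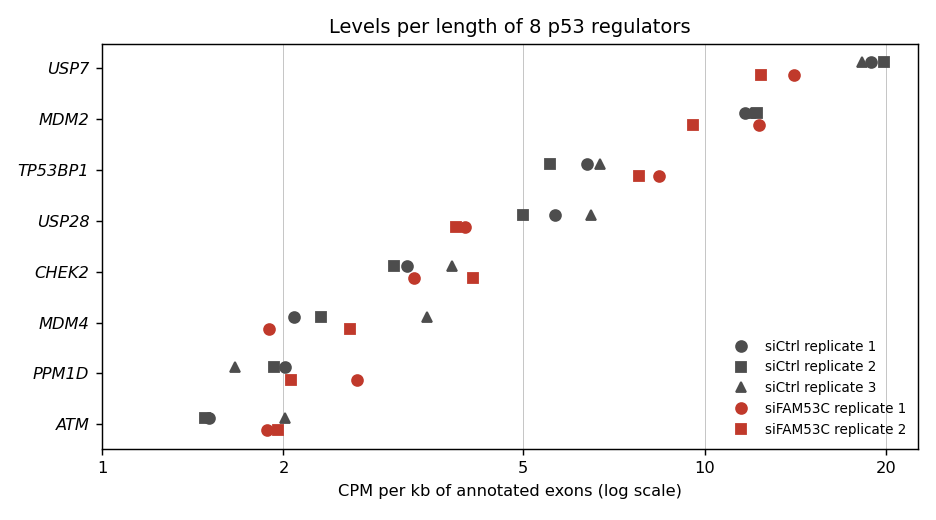
Level of each regulator in CPM per kilobase of exon on a log axis, 1 point for each of the 5 libraries, with genes ordered by the siCtrl mean. USP7 and MDM2 are at the top, and from TP53BP1 down to ATM neighbouring genes overlap.

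For each regulator, the gene with the most similar profile over the 5 libraries was taken from 9301 genes with a mean of at least 10 CPM, by the Euclidean distance between log2 CPM values centred on the gene's mean. USP7 was nearest to LTBP1 (distance 0.064), USP28 to ARID4B (0.066), TP53BP1 to PRDM10 (0.057), MDM2 to IPO8 (0.059), MDM4 to STS (0.077), ATM to ORMDL3 (0.053), CHEK2 to STIM1 (0.026) and PPM1D to SMARCD2 (0.058). None of these 8 neighbours is itself a regulator on the lists used here. With 5 libraries and so many genes, close matches are found for any profile.

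The wider set of p53 regulators held 80 other genes, grouped by role, of which 78 were tested and TP63 and TP73 were too low. Of these, 4 were called lower and 1 higher (edgeR adjusted p under 0.05), beside 3.47% and 0.489% of all genes tested. There were 51 values below 0, beside 7391 of 15341 over all genes, and the median log2 fold change was -0.11, beside 0.016. HIPK2, a kinase that phosphorylates p53 to promote cell death, had 285, 357 and 281 CPM in the controls and 83.7 and 69.9 CPM after the knock-down (log2 fold change -2.002, edgeR adjusted p = 0.000963). DYRK2, another kinase of the same p53 residue, had 47.5, 42.1 and 47.9 CPM and then 24.9 and 19.7 CPM (-1.04, edgeR adjusted p = 0.009589). Both stood in the group of p53 kinases and their phosphatases, in which 2 of 11 were called lower and none higher, with 7 values below 0. The phosphatase PPM1D and the kinases ATM and CHEK2 had values above 0 that did not pass the test.

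OTUD5, a deubiquitinase of p53, had 64.6, 64.1 and 62.7 CPM in the controls and 33.2 and 30.3 CPM after the knock-down (-1.01, edgeR adjusted p = 0.002986). Among the 21 genes listed as other ubiquitin ligases and deubiquitinases, OTUD5 was the 1 called lower, and 14 had values below 0. That list also holds a few genes of related function. USP7 was called lower in the same fit. Of all genes tested, 3.47% were called lower and 0.489% higher, which is the background for each group count here. GNL3, a nucleolar protein that can bind MDM2, had 132, 136 and 136 CPM and then 73.5 and 88.2 CPM (-0.74, edgeR adjusted p = 0.014). It was the 1 of 8 MDM2 inhibitors called lower, and 6 of the 8 had values below 0. The gene called higher was PML, the scaffold of nuclear bodies that gather p53 and its modifying enzymes, 1 of 6 cofactors and family members tested. PML had 71.4, 63.6 and 69.9 CPM in the controls and 104 and 106 CPM after the knock-down (0.62, edgeR adjusted p = 0.018). HIPK2 and OTUD5 kept their calls when any 1 library was left out. PML lost its call without siCtrl replicate 1, siCtrl replicate 2, siFAM53C replicate 1 or siFAM53C replicate 2 (edgeR adjusted p 0.078, 0.110, 0.138 and 0.137), GNL3 without the first 3 of these (0.070, 0.089 and 0.147), and DYRK2 without siCtrl replicate 1 or siFAM53C replicate 2 (0.066 and 0.078). PIDD1, a p53 target that activates caspase-2 and leads to cleavage of MDM2, had 15.3, 12.7 and 18.7 CPM and then 23.6 and 28.6 CPM, a log2 fold change of 0.75 that did not pass the test (edgeR adjusted p = 0.090).

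None of the 12 acetylation and methylation genes, the 12 mitotic surveillance and PIDDosome genes or the 8 genes that control MDM2 and MDM4 passed the edgeR test, with medians of -0.056, -0.22 and -0.13. At an unadjusted p under 0.05 there were 0 of the first group, 2 lower and 1 higher of the second and 0 of the third, beside 10.5% and 6.61% of all genes. Calls appeared in these groups in other fits. With the block by library names AURKA, CENPF, PLK4 and SIRT1 were called lower and PIDD1 higher, and the side term added PLK1 and STIL as lower (edgeR, genes outside the rule for naming and named after their values were seen, PIDD1 apart). Over all 15341 genes the block by library names called 1350 lower and 642 higher, and the side term 1636 lower and 1037 higher.

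ATM and CHEK2 belong to the wider DNA damage signalling network, for which 25 further genes were listed and all were tested. Of these, 2 were called lower and 0 higher (edgeR, beside 3.47% and 0.489% of all genes), with 18 values below 0, beside 7391 of 15341, and a median of -0.090. At an unadjusted p under 0.05 there were 5 lower and 1 higher, beside 10.5% and 6.61%. DESeq2 called 4 lower and 0 higher, beside 6.98% and 2.02%, and limma-voom 2 and 0, beside 3.35% and 0.482%. PAXIP1, an adaptor that binds 53BP1 at breaks, had 28.7, 28.3 and 34.4 CPM in the controls and 15.3 CPM in both knock-down libraries (-0.99, edgeR adjusted p = 0.013). CLSPN, the adaptor through which ATR activates the kinase Chk1, had 69.4, 70.4 and 96.3 CPM and then 36.8 and 43.6 CPM (-0.97, edgeR adjusted p = 0.027). Both lost their calls without siCtrl replicate 1, siCtrl replicate 2, siFAM53C replicate 1 or siFAM53C replicate 2, with edgeR adjusted p-values of 0.060, 0.058, 0.109 and 0.099 for PAXIP1 and 0.072, 0.087, 0.195 and 0.086 for CLSPN. They kept them without siCtrl replicate 3. Among genes with a mean of at least 10 CPM, the highest values were 0.30 for TELO2, which stabilises ATM and related kinases, and 0.20 for ATRIP, the partner of ATR (edgeR adjusted p = 0.271 and 0.491). HIPK2, OTUD5 and CLSPN hold the GACAAGA heptamer 2 times each in their 3' UTRs, while DYRK2, GNL3, PML and PAXIP1 hold none. Of all tested genes with a 3' UTR, 10.7% held at least 1 copy, and 16.4% of those with a 3' UTR of at least 1000 bases did. The share with 2 copies was not counted. The UTRs of these genes differ in length, with 11357 bases for HIPK2 and 222 for GNL3. The heptamer was picked from genes that were lower in these libraries, so its presence in genes called lower supports nothing.

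**Figure D5:**
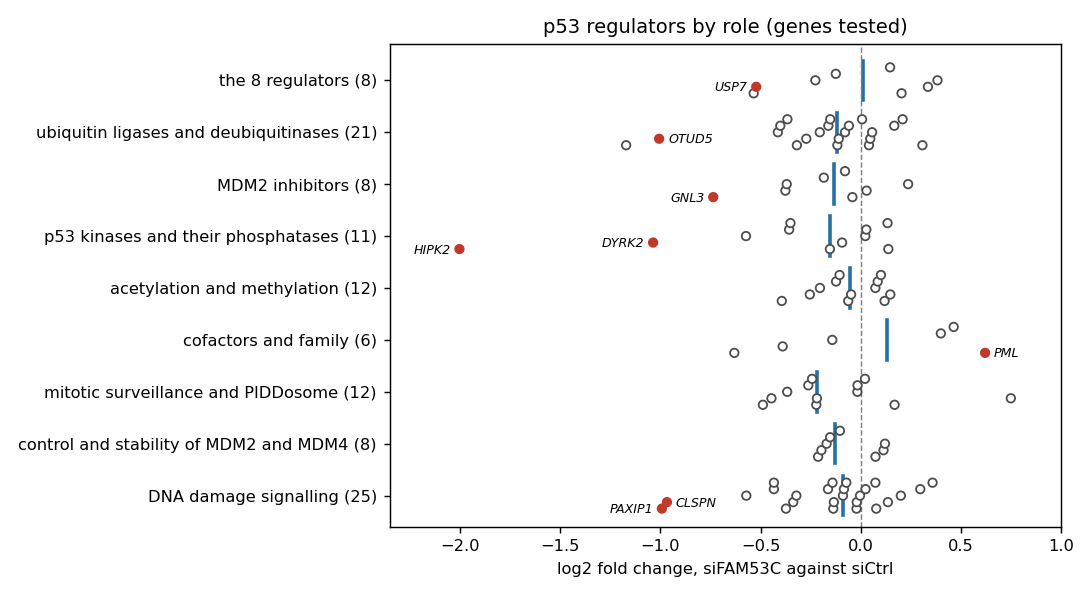
Log2 fold changes, siFAM53C against siCtrl, of the 8 regulators, the other p53 regulators by role and the DNA damage signalling genes, with 1 point a gene, filled and named where the edgeR adjusted p is under 0.05, and a bar at each group's median. HIPK2 stands furthest from 0 at -2.002, PML is the 1 filled point above 0, and the 8 regulators lie between -0.53 and 0.38.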

How the data were processed

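RNA of RPE-1 cells had been sequenced as paired reads in 5 libraries (3 siCtrl, 2 siFAM53C). The authors deposited 1 table of raw counts per Ensembl gene. The submitters' processing notes name cutadapt 2.10, HISAT2 and featureCounts, and the methods describe reverse-stranded alignment to hg38 with an hg38 gene annotation. The strand setting of featureCounts and the annotation release are not given in the sources used here. Samples were grouped by the labels, and all 5 columns were used. Symbols and coordinates came from GENCODE 44 (GRCh38), which named 56105 of 64252 genes, and promoter windows from RefSeq.

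Genes were filtered with filterByExpr (minimum count 10, minimum total 15), scaled by TMM and tested in edgeR 4.0.16 (R 4.3.3) with robust quasi-likelihood fits on condition alone, with Benjamini-Hochberg adjustment over all 15341 genes. Intervals are 95% and come from the fit. DESeq2 1.42.0 and limma 3.58.1 (voom) were alternatives, with other scalings and filters, each library left out in turn, 2 replicate blocks, side terms and a fit without robust estimation, the last 2 kinds chosen after seeing the data. The planned test did not name robust estimation, which the main fit used. The fits were tested on simulated data, with 100 genes changed by a log2 of 1 and 100 by 2. edgeR recovered 47 and 85 of these and also called 19 unchanged genes. DESeq2 recovered 59 and 87 and called 44 unchanged genes, and limma-voom recovered 42 and 79 and called 16. With each tool, unchanged genes made up a larger share of the simulated calls than the adjusted p threshold of 0.05 aims at. How far this holds for the calls in the real libraries was not tested. Changes under a log2 of 1 were not simulated. The 8 regulators all differed by less than that, so how often such differences are missed was not tested. CPM used TMM-scaled totals, log2 CPM a prior count of 2, and ratios two-sided exact permutation tests. Library pairs differed beyond sampling noise (chi-square per gene 9.31 to 45.3, where noise alone gives about 1), so none was merged.

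The 8 regulators were fixed by name, without their values. The lists of other p53 regulators and of DNA damage signalling genes were chosen with earlier results of these data known. Genes named are FAM53C, CDKN1A, the 8 regulators, their neighbours, paralogs and nearest profiles, and of the lists those called and the 2 highest and 2 lowest with a mean of at least 10 CPM. Of the markers of other cells, CD3E and ALB had 0 counts and PTPRC and PECAM1 at most 1.05 CPM. BEST1, RLBP1, TYR and PMEL were at most 1.23 CPM, and KRT18 was at 148 to 182 CPM. Library sizes limit precision by counting error of 1.98% (USP7) to 6.18% (CHEK2) in the library with the fewest counts of each gene.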

Additional observations from a re-analysis of the deposited data

How the results depend on the processing

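With 3 against 2 libraries the count of calls follows the settings, and for the 8 regulators it moved between 0 and 2 lower and 0 and 1 higher. The regulators called lower (1) were 0 with upper-quartile scaling, library totals or a fit without robust estimation, and 2 with DESeq2, no filter, the block by library names, the side term or the unadjusted p, and 0 to 1 with 1 library left out. Those called higher (0) were 1 with the block by titles, the side term or the unadjusted p, and 0 to 1 with 1 library left out. USP7 was called in 8 of 16 alternatives (adjusted p 0.000371 to 0.340), USP28 in 5 (0.005544 to 0.443) and TP53BP1 in 3 (0.011 to 0.537), none of them with a changed sign, and the other 5 regulators in 0. The cause of these shifts was not tested.

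Signs changed for MDM4 (0.010, block by titles), ATM (-0.068) and CHEK2 (-0.037) with siFAM53C replicate 1 on side B, and CDKN1A (-0.054, block by titles). With 1 library left out the log2 values ran from -0.33 to 0.044 for MDM2, -0.47 to 0.033 for MDM4, -0.026 to 0.29 for CHEK2, -0.27 to 0.64 for CDKN1A, -0.34 to 0.48 for MDM2 to MDM4, -0.11 to 0.32 for PPM1D to ATM and -0.20 to 0.057 for CHEK2 to ATM.

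Other p53 regulators called lower (4) were 7 with DESeq2, 9 with no filter, 9 with the block by titles, 14 with the block by library names, 20 with the side term, 14 unadjusted, and 2 to 11 with 1 library left out. Those higher (1) were 2 with DESeq2, 3 with no filter, 2 and 3 with the blocks, 3 with the side term, 2 with siFAM53C replicate 1 on side B, 3 unadjusted, and 0 to 2 with 1 library left out. Their median (-0.11) was -0.063 with upper-quartile scaling and -0.042 with library totals. These scalings moved other genes upward too. USP7 went from -0.52 to -0.47 and -0.45, and FAM53C from -1.71 to -1.66 and -1.64. The median over all genes is not given for them, so the shift is no measure of the gap to all genes. DNA damage genes called lower (2) were 4 with DESeq2, no filter, both blocks and the side term, 5 unadjusted, and 0 to 4 with 1 library left out, and those higher (0) were 1 unadjusted. Their median (-0.090) was -0.28 with siFAM53C replicate 1 on side B, and -0.14 to -0.024 with 1 library left out.

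All genes called lower (533) were 890 with DESeq2, 961 with no filter, 856 and 1350 with the blocks by titles and library names, 1636 with the side term, 1607 unadjusted, and 157 to 886 with 1 library left out. Those higher (75) were 121 with library totals, 257 with DESeq2, 375 with no filter, 355 and 642 with the blocks, 1037 with the side term, 259 with siFAM53C replicate 1 on side B, 1014 unadjusted, and 6 to 414 with 1 library left out. The block pairs samples that share a number in the titles (correlations of deviations 0.169 and -0.285) or in the library names (0.169 and 0.371), and 2 pairs do not show that they belong together.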
